A study of Mus musculus with 12 samples.

Results

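Lin28b, Hmga2, Igf2bp1, Igf2bp2, Igf2bp3, Arid3a and Sox17 are 7 genes tied to the fetal state of haematopoietic stem cells (HSCs). They were chosen by gene name from the deposited list of promoter contacts, after removal of the number that marks alternative promoters. The 7 genes had 1 captured promoter each and 71 contacts, of 3374 genes and 89545 contacts in all. The contacts come from promoter Capture-C, in which cross-linked chromatin is cut with DpnII and ligated, and ligation products of chosen promoters are enriched with probes. Fetal HSCs came from dissected livers at embryonic day 14.5, and adult HSCs from bone marrow at 6 to 8 weeks of age. Both were of strain B6129SF1, with no mutation or treatment named, and sorted by surface markers as lineage-negative Sca1+ cKit+ CD135- cells. Each population had 4 libraries, 2 in each of 2 batches. Whether cells of several animals were pooled is not given in the sources used here. A further 4 of the 12 libraries, from the blood progenitor line HPC7 (wild type and TCF3 knockout), were not analysed here.

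LIN28B is an RNA-binding protein that blocks maturation of let-7 microRNAs, which are scarce in fetal and abundant in adult tissues. Let-7 binds mRNAs of the growth regulators HMGA2, IGF2BP1, IGF2BP2, IGF2BP3 and ARID3A, so a high LIN28B level is known to favour them in fetal blood progenitors. IGF2BP1, IGF2BP2 and IGF2BP3 bind and stabilise mRNAs, HMGA2 bends DNA in chromatin, and ARID3A and SOX17 are transcription factors. SOX17 is known from endothelium and from the emergence and upkeep of fetal HSCs.

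The 250 bases before the annotated transcription start are printed for the 4 genes with a window in the RefSeq promoter table (GRCm38.p6), because the results turn on these captured genes, whose FPKM values were higher in fetal cells. All 4 genes lie on the minus strand. The sequences run 5′ to 3′ along the gene, and capitals mark every match to a searched motif on either strand. The motifs were the DpnII site GATC, the GATA factor motif AGATAA and the NF-Y motif CCAAT. The Sp1 motif GGGCGG was searched as well. The E-box CAGCTG and the E-box CAGGTG were the last. The Lin28b window is chr10:45470202-45470451, the Igf2bp2 window chr16:22163300-22163549, the Igf2bp3 window chr6:49214955-49215204 and the Hmga2 window chr10:120476470-120476719.
Lin28b: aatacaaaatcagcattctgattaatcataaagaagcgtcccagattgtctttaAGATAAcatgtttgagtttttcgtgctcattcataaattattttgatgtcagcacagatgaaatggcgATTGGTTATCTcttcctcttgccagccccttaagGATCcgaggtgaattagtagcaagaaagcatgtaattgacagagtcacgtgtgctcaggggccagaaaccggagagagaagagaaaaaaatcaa
Igf2bp2: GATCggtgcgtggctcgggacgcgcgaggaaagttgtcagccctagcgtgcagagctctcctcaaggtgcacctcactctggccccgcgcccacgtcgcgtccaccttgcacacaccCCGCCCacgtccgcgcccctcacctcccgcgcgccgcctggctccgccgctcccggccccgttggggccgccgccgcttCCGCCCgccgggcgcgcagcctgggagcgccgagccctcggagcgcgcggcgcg
Igf2bp3: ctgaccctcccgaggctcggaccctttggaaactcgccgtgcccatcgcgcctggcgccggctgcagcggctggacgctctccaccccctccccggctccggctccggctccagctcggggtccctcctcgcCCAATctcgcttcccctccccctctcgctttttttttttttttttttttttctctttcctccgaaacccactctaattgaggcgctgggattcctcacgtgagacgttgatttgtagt
Hmga2: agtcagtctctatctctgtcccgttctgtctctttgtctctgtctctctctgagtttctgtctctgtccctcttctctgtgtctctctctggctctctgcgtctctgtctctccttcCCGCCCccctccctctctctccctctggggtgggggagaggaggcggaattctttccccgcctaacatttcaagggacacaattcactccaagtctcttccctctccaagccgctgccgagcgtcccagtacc

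The windows differed in base composition. The Igf2bp2 window had a GC content of 77.2% and 40 CpG dinucleotides, the Igf2bp3 window 60.4% and 21, the Hmga2 window 56.4% and 8, and the Lin28b window 39.2% and 6. The median over 32851 RefSeq windows was 52.4%. The Lin28b window was the only one of the 4 with AGATAA, which 9.99% of all windows hold. It held this motif 2 times, beginning 196 and 123 bases before the start, the nearer match adjoining a CCAAT match on its far side. CCAAT also occurred in the Igf2bp3 window and in 33.8% of all windows. GGGCGG, held by 32.7% of all windows, occurred 2 times in the Igf2bp2 window and 1 time in the Hmga2 window. GATC, held by 41.9%, occurred in the Lin28b and Igf2bp2 windows. The letters CAGCTG, in 13.0% of all windows, were in none of the 4. Neither was CAGGTG, which is in 17.2%.

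Each captured promoter fragment was listed with an FPKM value (fragments per kilobase, scaled for depth) in each population, as the authors deposited it. The values for Lin28b, all 3 Igf2bp genes, Hmga2 and Arid3a were 4.04 to 373 times higher in fetal than in adult HSCs, and Sox17 was at or near 0 in both. There is 1 value per population, with no replicate error and no known depth, so no difference below was set against a spread. In bulk RNA, fewer cells of a type and less RNA per cell cannot be told apart.

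Among the RNA-binding proteins, Lin28b was listed at 2.96 FPKM in fetal and 0.157 in adult HSCs, a ratio of 18.9. Igf2bp1 was listed at 6.43 and 0.0172, a ratio of 373 that rests on an adult value close to 0. Igf2bp3 was listed at 6.29 and 0.159, a ratio of 39.6. These 3 genes were thus below 1 FPKM in adult cells. Igf2bp2, in contrast, was listed at 12.3 FPKM in fetal and 1.91 in adult HSCs, a ratio of 6.43. Hmga2 had the highest fetal value of the 7 genes at 28.2 FPKM, against 1.75 in adult cells, a ratio of 16.1. Arid3a had the smallest ratio of the 6 genes, 4.04, from 8.08 and 2.001 FPKM. Sox17 was listed at 0.0202 FPKM in fetal HSCs and at 0 in adult HSCs, so no ratio is given. The fetal order of levels per length was therefore Hmga2, Igf2bp2, Arid3a, Igf2bp1, Igf2bp3, Lin28b and Sox17, with Igf2bp1 and Igf2bp3 nearly equal. In adult HSCs Arid3a, Igf2bp2 and Hmga2 lay close together, and the others were far lower.

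**Figure D1:**
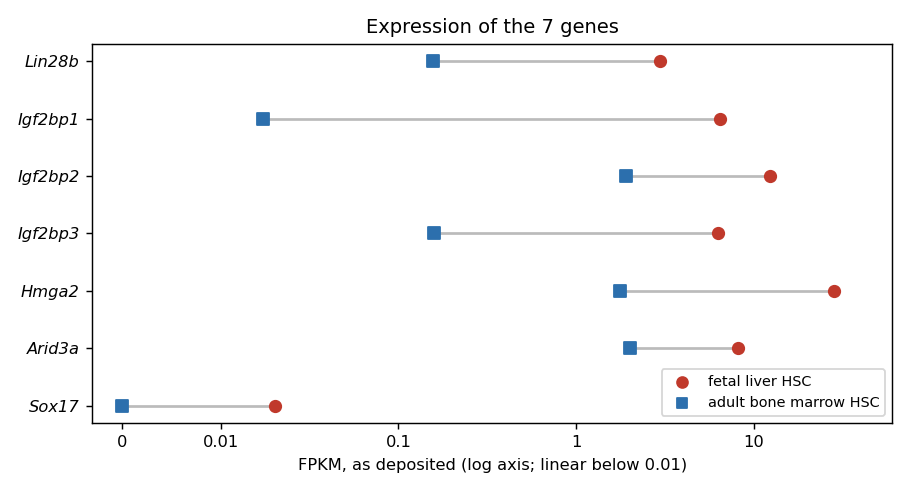
FPKM of the 7 genes (horizontal log axis, linear below 0.01) in fetal liver HSCs (circles) and adult bone marrow HSCs (squares), 1 deposited value per gene and population, with no error available. The fetal circle lies right of the adult square for every gene, and Sox17 sits at 0.0202 and 0, the lowest value of each population.

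On a log2(FPKM + 1) scale, which understates the change of low genes, the fetal minus adult difference was 3.41 for Hmga2, 2.87 for Igf2bp1, 2.65 for Igf2bp3 and 2.19 for Igf2bp2. It was 1.78 for Lin28b, 1.60 for Arid3a and 0.03 for Sox17. Of the promoters of the same batch, 99.5% had a lower difference than Hmga2, 99.5% than Igf2bp1, 99.2% than Igf2bp3, 98.4% than Igf2bp2, 97.5% than Lin28b and 96.4% than Arid3a. For Sox17 that share was 53.9%. The authors' deposited table marks differential expression for the 6 genes and not for Sox17. Among all promoters, those marked and higher in fetal cells made up 15.8% in the first batch and 45.9% in the second. In the second batch 100% of promoters carried the mark in one direction or the other, so there the mark does not set Lin28b, Igf2bp1, Igf2bp2, Igf2bp3 or Arid3a apart.

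Levels of cell type markers differed between the populations as well. All 10 captured HSC and progenitor markers of 12 listed were at 8.94 FPKM or more in both populations, and their sum was 234 in fetal and 364 in adult cells. Flt3, which encodes the CD135 antigen that was sorted out, was listed at 6.20 and 3.81. The summed level of 5 erythroid markers (Epor, Gata1, Hba-a1, Hbb-b1 and Klf1) was 68.0 in fetal and 17.0 in adult HSCs, with Hba-a1 and Hbb-b1 under 1 FPKM in adult cells. The 5 myeloid markers summed to 65.4 and 4.01, with Cebpe, Csf1r and Itgam under 1 in adult cells. The 3 captured macrophage markers of 5 summed to 12.2 and 0.874, and the 4 endothelial markers to 12.7 and 12.5. Of the endothelial markers Kdr was under 1 FPKM in both populations, and Cdh5 was listed at 2.53 in fetal and 0.00611 in adult cells. Cxcl12, 1 of 3 stroma markers, was at 0.0144 and 0.0253. No B cell, T cell or hepatocyte marker of the lists was captured. The part of erythroid, myeloid or macrophage RNA in the fetal values of the 7 genes was not tested.

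A contact joins a promoter fragment to a distal bin of 2 kb. It counts as called in a population where its score is above 0. The score starts at 1.3 in the first batch and at 2 in the second, as −log10 of a p limit of 0.05 or 0.01 would. Hmga2 and Sox17 were captured in the first batch, and the other 5 genes in the second. The batches differed in threshold and depth, so each gene is read against its own batch. The listed contacts of the first batch held 1312829 fetal and 1098957 adult counts over all promoters, those of the second batch 2368080 and 2135161. Values are pooled per population and batch, so a promoter has 1 count per bin and population and no replicate check. The intervals given are exact 95% intervals. They cover counting error only, since reads without molecular identifiers are not independent molecules. A contact called in 1 population only was listed for that call, so its interval, alone or in a sum, tests no difference.

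The promoters of the 4 RNA-binding genes had most of their calls in fetal HSCs, while Hmga2, Arid3a and Sox17 had similar numbers in both populations. For Lin28b, 3 bins were called in fetal cells and 0 in adult cells. For Igf2bp1 and also for Igf2bp2 it was 4 in fetal cells and 1 in adult cells. For Igf2bp3 it was 2 and 1. Of the 14 contacts of these 4 genes, 11 were called in fetal cells only, 1 in adult cells only and 2 in both. The counts went the same way, with 13 of 14 contacts holding more fetal than adult counts, also after scaling for the totals of the batch. Counts and calls are tied, so this is no separate line of evidence. Over the 7 genes, all 29 fetal-only contacts held more fetal counts, and 20 of the 23 adult-only contacts held more adult counts. Over all second-batch contacts 61.5% held more fetal counts. In the first batch it was 53.3%, and 20 of the 39 contacts of Hmga2 and Sox17. Hmga2 had 5 fetal and 5 adult calls, Arid3a 10 and 13, and Sox17 20 and 21. Thus 4 of 5 second-batch promoters had more fetal than adult calls, where 50.1% of all promoters of that batch did, and 0 of 2 first-batch promoters, where 48.1% did. More adult than fetal calls were made for Arid3a, as for 38.1% of second-batch promoters, and for Sox17, as for 42.1% of first-batch promoters. For Arid3a this direction reversed to 7 fetal and 5 adult calls when called bins up to 5 kb apart were merged. With the same merging Igf2bp1 had 2 fetal calls and 1 adult call. Lin28b was 1 of 92 second-batch promoters (5.03%) with no adult call. For Lin28b, 98.6% of second-batch promoters had a lower log2 ratio of calls, for Igf2bp1 and Igf2bp2 94.7%, and for Igf2bp3 77.3%. For Arid3a it was 23.2%, and in the first batch 42.1% for Hmga2 and 40.5% for Sox17.

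**Figure D2:**
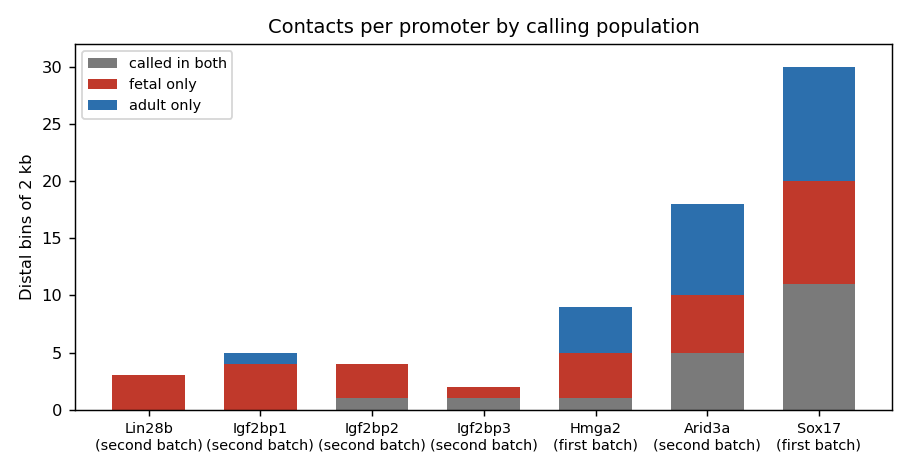
Distal bins of 2 kb listed for each captured promoter (vertical axis, a count), split into bins called in both populations (grey), in fetal HSCs only (red) and in adult HSCs only (blue). Lin28b has 3 fetal-only bins and nothing else, while Sox17 has 30 bins with 9 fetal-only, 10 adult-only and 11 shared.

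The 4 RNA-binding genes had few contacts, between 2 and 5 each, and in the second batch 25.8% of promoters had at most 5. Arid3a had 18 contacts and Sox17 30. Over all 7 genes 29 contacts were fetal only, 23 adult only and 19 shared. The 39 first-batch contacts comprised 13 fetal-only, 14 adult-only and 12 shared ones, where all promoters of that batch had 38.9%, 35.4% and 25.7%. The 32 second-batch contacts comprised 16, 9 and 7, where all promoters had 33.8%, 29.1% and 37.1%. In the first batch, 48.0% of the genes' 25 fetal calls and 46.2% of their 26 adult calls were shared, against 39.8% and 42.1% over all promoters. In the second batch, 30.4% (13.2 to 52.9%) of their 23 fetal calls and 43.8% (19.8 to 70.1%) of their 16 adult calls were shared, against 52.3% and 56.0%. The wide intervals follow from the small number of calls, and neighbouring bins are not independent.

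Lin28b was captured on a fragment of 1386 bp (chr10:45190100-45191486, mm9). All 3 of its contacts lay upstream of the start and all were called in fetal HSCs only. The nearest, 108 kb away, held 17 fetal and 12 adult counts, a ratio of 1.42 (0.638 to 3.25). Its bin was marked as an active promoter and as open chromatin in both populations. The other contacts were neighbouring bins at 348 and 350.2 kb (chr10:45538001-45542001), with larger imbalances. The bin at 348 kb held 20 fetal and 2 adult counts (ratio 10.0, 2.43 to 88.2), and carried no mark. The bin at 350.2 kb held 21 and 5 counts (ratio 4.20, 1.54 to 14.3), and was an active enhancer and open in both populations. Together the pair held 41 fetal and 7 adult counts, a ratio of 5.86 (2.60 to 15.5). The interval of the nearer bin included 1 and that of the far pair did not. All 3 bins were listed for their fetal call alone, so neither interval tests a difference. The scores of the far pair were 4.4 and 4.41, values that 30.9% of second-batch fetal calls reached. The Lin28b bins were not called by any other captured promoter, and no captured promoter lay within 5 kb of them.

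**Figure D3:**
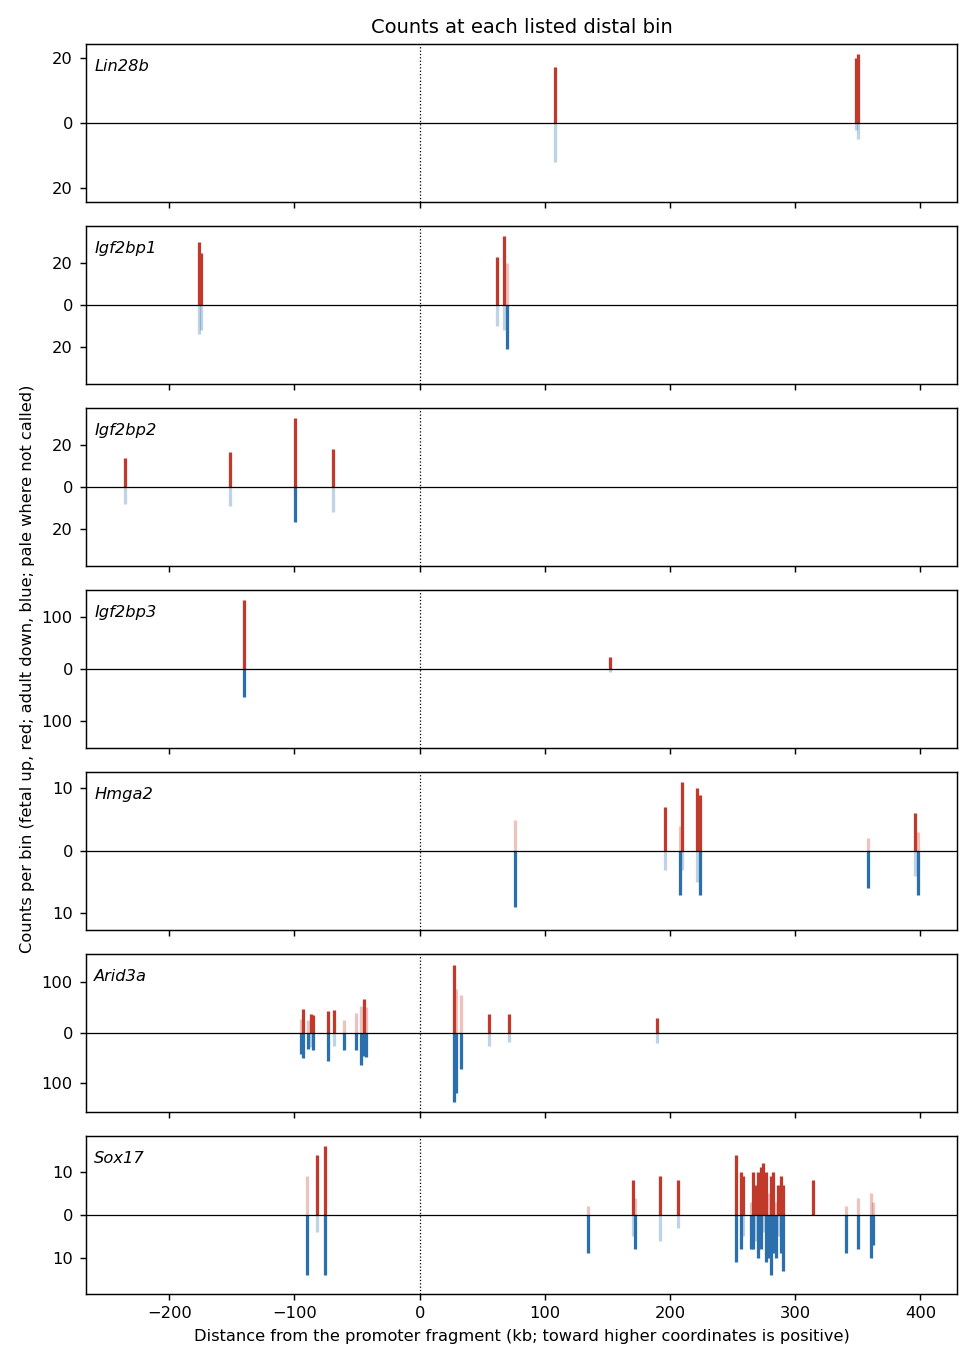
Counts at each listed distal bin of the 7 promoters (vertical axes, each promoter on its own scale; fetal counts upward in red, adult counts downward in blue, pale where the population made no call) against distance from the promoter fragment in kb, with higher coordinates to the right. The pair of Lin28b bins near 350 kb is tall above and short below the line (41 against 7 counts), whereas the Sox17 bins from 252 to 290.4 kb sum to 146 above and 149 below, with single bins leaning either way.

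Igf2bp1 was captured on 1048 bp (chr11:95866869-95867917). A pair of neighbouring bins 176 and 174 kb toward lower coordinates was called in fetal HSCs only. These bins held 30 and 25 fetal against 14 and 12 adult counts, together 55 and 26, a ratio of 2.12 (1.304 to 3.51). They were listed for their fetal call alone, so this interval tests no difference. Both were marked as active enhancers in fetal cells and not in adult cells, and neither was marked open in either population. On the other side, bins at 61.6 and 67.6 kb were called in fetal cells only, with 23 and 33 fetal against 10 and 12 adult counts. The bin at 69.6 kb was called in adult cells only, yet it held 20 fetal and 21 adult counts. The bins at 67.6 and 69.6 kb were active promoters in both populations, the first open in fetal cells only. Over all 5 contacts Igf2bp1 had 131 fetal and 69 adult counts, a ratio of 1.90 (1.41 to 2.58). Of its bins, 3 were also called from Snf8 or Phb, promoters of the first batch. At 176 kb Snf8 had 5 fetal and 8 adult counts, the opposite order to the 30 and 14 of Igf2bp1. At 174 kb Snf8 had 10 fetal and 4 adult counts and Phb 10 and 13, while at 67.6 kb Snf8 had 10 and 21, again opposite to Igf2bp1 with 33 and 12. The Snf8 and Phb counts are few and of the other batch. No interval was computed for them, so no difference is read from their order.

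Igf2bp2 was captured on 2853 bp (chr16:22160767-22163620). Its 4 contacts all lay on the side of the transcribed gene, 2 of them nearer than the gene's GRCm38 length of 104 kb. The contact at 99.2 kb was called in both populations with scores of 7.31 in fetal and 2.26 in adult cells. It held 33 and 17 counts, a ratio of 1.94 (1.05 to 3.72), at a bin marked as an active enhancer in both. The remaining contacts were fetal only, with 18 and 12 counts at 69.2 kb, 17 and 9 at 151 kb and 14 and 8 at 235 kb. Each of these 3 ratios had a counting interval that included 1, and the interval at 99.2 kb included the batch ratio of 1.11. The ratios of the 4 bins ranged from 1.5 to 1.94, and their sum was 82 fetal and 46 adult counts (1.78, 1.23 to 2.62). Of these bins 3 were listed for their fetal call alone, so neither the range nor the summed interval tests a difference. The bin at 151 kb was an active promoter in both populations. Tra2b_1, an alternative promoter of the neighbouring gene Tra2b, was also joined to 3 of the 4 bins. It called those at 99.2 and 151 kb in both populations, with 13 and 11 and with 10 and 14 counts, and the bin at 69.2 kb in fetal cells only, with 8 and 4.

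Igf2bp3 was captured on 588 bp (chr6:49164623-49165211) and had 2 contacts, 1 on either side. The contact 139.9 kb toward the 3′ side, beyond the GRCm38 gene length of 130.3 kb, held more fetal counts than any other of the 4 RNA-binding genes. It was called in both populations with scores of 86.78 and 22.11, which only 0.41% of fetal and 2.26% of adult calls of the batch reached. It held 133 fetal and 55 adult counts, a ratio of 2.42 (1.75 to 3.37). Its bin overlaps the captured fragment of 2410003K15Rik, now named Malsu1, a gene for a mitochondrial ribosome assembly factor. From that promoter the contact with the Igf2bp3 fragment was called in both populations too, with 92 and 48 counts, a ratio of 1.92 (1.34 to 2.78), and scores of 29.53 and 13.72. The imbalance was thus seen from either end, although both measurements use the same libraries. The second Igf2bp3 contact, 152 kb upstream, was fetal only with 23 and 6 counts, a ratio of 3.83 (1.52 to 11.5). That bin was an active promoter in both populations. 2410003K15Rik called the same bin in both populations with 23 fetal and 28 adult counts, so there the imbalance of Igf2bp3 was not shared by its partner promoter.

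Hmga2 was captured on 1476 bp (chr10:119912343-119913819) in the first batch. Its 9 contacts all lay upstream, from 75.9 to 398 kb, and held few counts, 2 to 11 fetal and 3 to 9 adult per bin. Fetal calls stood mainly between 196 and 224 kb, around bins marked as active enhancers, and adult calls were scattered from 75.9 to 398 kb. The highest fetal score, 5.38, was at 209.9 kb with 11 fetal and 3 adult counts (ratio 3.67, 0.969 to 20.5). The bins at 222 and 224 kb held 10 and 5, and 9 and 7 counts. The bins at 209.9, 222 and 224 kb were active enhancers and open in both populations. Adult-only calls stood at 75.9 kb (5 fetal and 9 adult counts), 208 kb (4 and 7), 358 kb (2 and 6) and 398 kb (3 and 7), with adult scores from 1.39 to 1.95. The bin at 75.9 kb was marked as an active enhancer in fetal cells only and as a bivalent promoter in adult cells only. Every interval of a single Hmga2 bin included 1. Over all 9 bins the sums were 57 and 51, a ratio of 1.12 (0.752 to 1.66). With a p limit 10 times smaller, 3 fetal calls and 0 adult calls were left.

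Hmga2 was reached from 2 other captured promoters, Llph at 249 kb and Irak3 at 274 kb, both fetal only. Llph held 12 fetal and 4 adult counts (ratio 3.00, 0.909 to 12.8), and Irak3 10 and 2 (ratio 5.00, 1.07 to 46.9). Summed they held 22 and 6, a ratio of 3.67 (1.44 to 11.1). Each was listed for its fetal call alone, so these intervals test no difference. Hmga2's own list held no contact on that side. Llph also called the bins 396 and 398 kb upstream of Hmga2.

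Arid3a was captured on 661 bp (chr10:79389445-79390106) within a dense stretch of captured genes. Its 18 contacts spanned 94.8 kb toward lower and 189 kb toward higher coordinates. They carried the highest counts of the 7 genes and hardly differed between populations. Counts ranged from 26 to 135 in fetal and from 18 to 136 in adult HSCs, and their sums were 898 and 888, a ratio of 1.01 (0.921 to 1.11). The bin with the most counts, at 27.2 kb, held 135 and 136. Only 3 bins had intervals that excluded 1. These were 29.2 kb with 86 fetal and 120 adult counts (0.717, 0.537 to 0.953) and 71.2 kb with 37 and 18 (2.06, 1.14 to 3.84). Also among them was 68.8 kb on the other side with 45 and 27 (1.67, 1.01 to 2.79). The interval at 68.8 kb included the batch ratio of 1.11. At 94.8 kb on that side, an adult-only bin with 27 and 41 counts, the interval (0.390 to 1.10) lay below it. The highest adult score, 7.34, was at 46.8 kb toward lower coordinates with 53 fetal and 64 adult counts, called in adult cells only. That bin holds the captured fragment of Prtn3, the gene of proteinase 3 of myeloid granules. The highest fetal score, 3.89, was at 92.8 kb on the same side, a shared contact with 47 and 49 counts at a bin marked as an active enhancer in both populations.

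Other bins of Arid3a lay in or within 5 kb of captured fragments of Ptbp1, Elane, Wdr18 and Stk11. Elane encodes neutrophil elastase. The 7 bins from 72.8 to 42.8 kb toward lower coordinates, around Ptbp1, Prtn3 and Elane, summed to 325 fetal and 310 adult counts (1.05, 0.895 to 1.23). The 3 bins near Wdr18 summed to 296 and 327 (0.905, 0.771 to 1.06), and the 5 bins farthest on the lower side to 172 and 186 (0.925, 0.747 to 1.14). The intervals of all these groups included 1, but that of the Wdr18 group lay below the batch ratio of 1.11. Prtn3 was also joined to the Arid3a promoter, at 1 bin in both populations (66 and 56 counts) and at 1 in adult cells only (47 and 56). Wdr18 was joined to it in adult cells only with 71 and 84 counts, and Stk11_1 in fetal cells only with 14 and 9. Of the 18 Arid3a bins, 10 lay within 5 kb of another captured promoter, as did 1 Igf2bp3 bin, where 14.3% of all second-batch contacts did. Of the 18 Arid3a bins, 16 were also called by at least 1 of 12 other genes. Bins used by another gene made up 43.7% of the contacts of the 7 genes and 36.1% of all contacts.

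Sox17 was captured on 453 bp (chr1:4486377-4486830) in the first batch and had the most contacts of the 7 genes, although its FPKM was 0.0202 and 0. A group of 17 bins from 252 to 290.4 kb toward higher coordinates, ending at the captured fragment of Mrpl15, a mitochondrial ribosomal protein gene, held most of them. Of these bins 10 were shared, 4 fetal only and 3 adult only, and their counts summed to 146 and 149, a ratio of 0.980 (0.775 to 1.24). The highest fetal score, 6.50, was at 252 kb with 14 and 11 counts, at a bin marked as an active enhancer in adult cells only. The highest adult score, 5.64, was at 280.4 kb with 9 and 14 counts, at an active enhancer of both populations. In this group the populations did not differ beyond counting error.

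Farther out, 4 bins from 340.4 to 362 kb, the last 2 at the captured fragments of Tcea1, a transcription elongation factor gene, were called in adult cells only. They held 2, 4, 5 and 3 fetal against 9, 8, 10 and 7 adult counts, together 14 and 34, a ratio of 0.412 (0.204 to 0.788). All 4 were listed for their adult call alone, so this interval tests no difference. From its own side, Tcea1 called the Sox17 promoter in adult cells only, with 3 and 11 counts (0.273, 0.0489 to 1.03), while its alternative promoter Tcea1_1 called it in both with 6 and 7. The bin at 314 kb held 8 fetal counts and 0 adult counts, so that the ratio has only a lower bound, 1.71. On the other side of Sox17, the bin at 81.6 kb was fetal only with 14 and 4 counts (3.50, 1.10 to 14.6). That interval included the batch ratio of 1.17. Over all 30 bins the sums were 238 and 246, a ratio of 0.967 (0.806 to 1.16). Mrpl15 called Sox17 in both populations with 26 and 27 counts. Of the 30 bins, 7 lay within 5 kb of another captured promoter, where 11.6% of all first-batch contacts did.

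Scaled for the batch totals of contacts within chromosomes (a fetal excess of 1.17 times in the first and 1.11 times in the second batch), the count ratios kept this order. The median log2 ratio over the bins was 1.72 for Lin28b, 1.37 for Igf2bp3, 0.90 for Igf2bp1 and 0.64 for Igf2bp2. It was 0.09 for Hmga2, -0.09 for Arid3a and -0.16 for Sox17. Without the scaling Arid3a and Sox17 turned to 0.059 and 0.069, and with a pseudocount of 5 Hmga2 turned to -0.0095, so these 3 have no stable direction. The 4 RNA-binding genes stayed above 0 under each scaling and pseudocount tried. Of their 14 bins, 13 were listed with a fetal call, so this was largely set by the listing and is no separate support. Of all contacts, 9.45% in the second batch had a scaled log2 ratio over 1, as did 2 of 3 Lin28b bins, 2 of 2 Igf2bp3 bins, 1 of 5 Igf2bp1 bins and no Igf2bp2 or Arid3a bin. In the first batch that share was 13.0%, and 1 of 9 Hmga2 and 3 of 30 Sox17 bins were over 1. Below -1 were 2 Hmga2 and 10 Sox17 bins, where 18.6% of all contacts were, and no bin of the 5 second-batch genes, where 5.96% of all contacts were. Compared with all contacts of the same batch and distance class, 4 of the 71 bins lay above the 95th percentile. These were both far Lin28b bins, the upstream Igf2bp3 bin and the Sox17 bin at 314 kb. The Sox17 bin at 134 kb lay below the 5th.

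**Figure D4:**
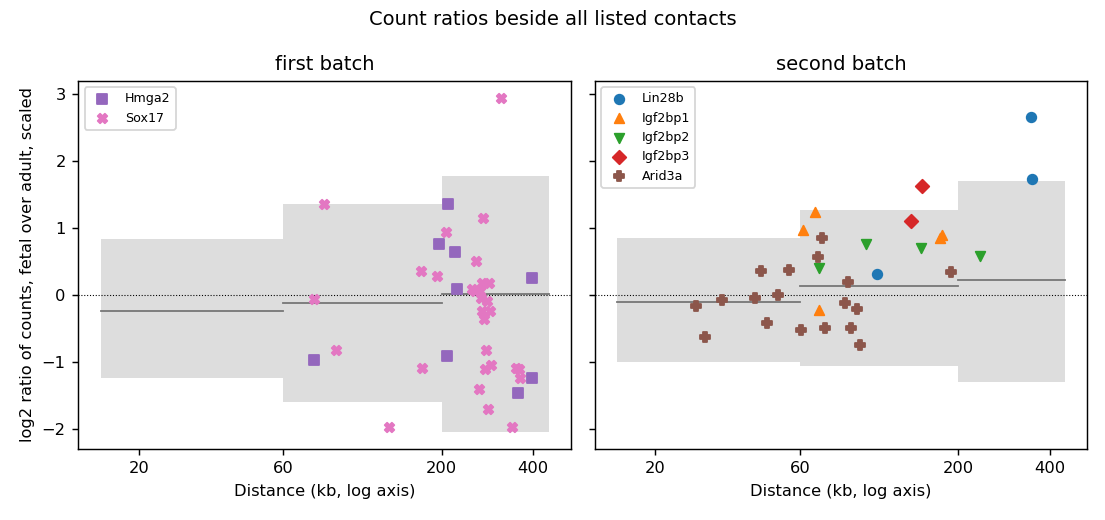
Scaled log2 ratio of fetal over adult counts (vertical axis) of each bin of the 7 promoters against distance in kb (log axis), first batch left and second batch right. Grey bands span the 5th to 95th percentile and grey lines the median of all listed contacts in 3 distance classes (under 60, 60 to 200 and over 200 kb). The Lin28b and Igf2bp3 points sit highest in the second batch, with a Lin28b maximum of 2.66, and Arid3a points lie on both sides of 0, from -0.74 to 0.85.

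The genes' bins were often marked alike in both populations. The authors deposited these marks as 0 or 1 for each bin and population. Of the 71 bins, 16 were active promoters in both populations (4 of 39 in the first batch and 12 of 32 in the second, where all contacts had 13.8% and 16%) and the other 55 in neither. Active enhancers were marked in both for 10 bins, in fetal cells only for 4 (2 of Igf2bp1 and 2 of Hmga2) and in adult cells only for 3 (2 of Arid3a and 1 of Sox17). Fetal marks thus stood at 7 of 39 first-batch and 7 of 32 second-batch bins (12.7% and 12.7% of all contacts), and adult marks at 6 and 7 bins (11.7% and 12.2%). Open chromatin was marked in both for 40 bins, in fetal cells only for 3, in adult cells only for 6 and in neither for 22. Bins open in the calling population took 64.0% (42.5 to 82.0%) of the first-batch fetal and 69.2% (48.2 to 85.7%) of the adult calls, against 53.0% and 54.6% over all promoters. For the second-batch genes it was 60.9% (38.5 to 80.3%) and 81.3% (54.4 to 96.0%), against 56.7% and 57.2%. Active promoters took 39.1% (19.7 to 61.5%) of the genes' second-batch fetal calls, against 18.2% over all promoters. Active enhancers took 26.1% (10.2 to 48.4%), against 12.9%. In the first batch active promoters took 8.00% (0.984 to 26.0%) of fetal calls against 15.6%, and active enhancers 20.0% (6.83 to 40.7%) against 12.7%.

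Contacts reaching the 7 promoters from elsewhere also carry marks for the bins of those promoters, and 15 such contacts were listed, onto 5 of the genes. They comprised 4 fetal-only, 7 adult-only and 4 shared contacts. The promoter bins of Hmga2, Igf2bp3 and Sox17 were marked as active promoters in fetal cells only, and as open in both. The Igf2bp2 bin had no promoter mark and was open in fetal cells only. Both Arid3a bins were marked as active promoters in adult cells only and as open in both populations, while the FPKM of Arid3a was higher in fetal cells. The bin starting at chr10:79390001 was also marked as an active enhancer in fetal cells only. For Sox17 the fetal mark stands beside an FPKM of 0.0202. No captured promoter was joined to Lin28b or Igf2bp1. Onto Igf2bp2 came 1 contact, from Tra2b_1, fetal only with 10 and 5 counts (ratio 2, 0.623 to 7.46). The adult-only contacts onto Arid3a, 6 in number, came from Cirbp, Rnf126, Wdr18 and Prtn3, and all 8 onto it summed to 268 fetal and 300 adult counts (0.893, 0.755 to 1.06).

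**Figure D5:**
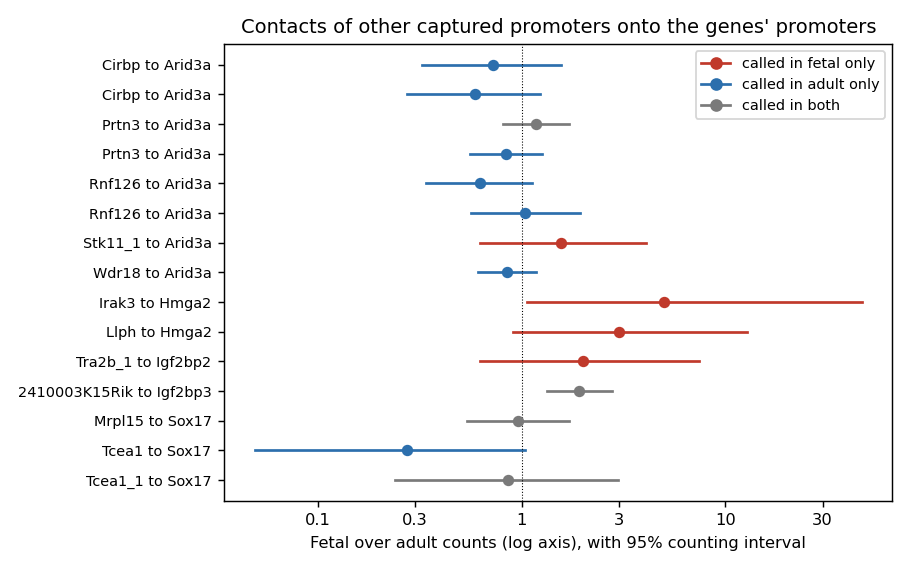
Ratio of fetal over adult counts (horizontal log axis) with its exact 95% counting interval for the 15 contacts of other captured promoters onto the promoters of Arid3a, Hmga2, Igf2bp2, Igf2bp3 and Sox17, coloured by the population that called them. The intervals of 2410003K15Rik to Igf2bp3 (1.34 to 2.78) and Irak3 to Hmga2 (1.07 to 46.9) lie right of 1, and the others cross it. The Irak3 interval includes 1.17, the ratio over all listed first-batch contacts within chromosomes.

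Hmga2 and Sox17 had long contacts. Fetal calls of the first-batch genes had a median distance of 266 kb and adult calls of 274 kb, against 178 and 153 kb over all promoters. For the second-batch genes the distances were 92.8 and 65.2 kb, against 102 and 77.7 kb, with 10 of the 23 fetal and 13 of the 16 adult calls belonging to Arid3a. The median called contact of Hmga2 and Sox17 held 9 counts in fetal and 9 in adult cells. That of the second-batch genes held 33 fetal and 47 adult counts. Of the contacts called in 1 population only, 19 of 27 in the first batch (70.4%) and 14 of 25 in the second (56.0%) had a score within 1 unit of the threshold. Over all promoters these shares were 70.7% and 61.3%.

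Other promoters resembled the 7 when compared over 4 values, log2 of calls and of FPKM after adding 1 in each population, by Euclidean distance within the batch. Igf2bp3 was nearest to the embryonic globin gene Hbb-y (0.306) and then to Igf2bp1 (0.761). Igf2bp1 was nearest to the globin gene Hbb-b1 (0.701) and then to Igf2bp3. Lin28b was nearest to Hp (0.753), the haptoglobin gene, and Satb1 (0.846). Hmga2 was nearest to Ermap (0.581), an erythroid membrane protein gene, and then to Igf2_1 (1.34). Igf2bp2 was nearest to Csrp2 (0.897) and Elane (0.991), Arid3a to Coq4 (0.552) and Hyal2 (0.580), and Sox17 to Madcam1 (0.0974) and Hand1 (0.161), which were likewise near or at 0 FPKM.

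A list of 42 genes was drawn up around the let-7 and insulin-like growth factor pathway. It also held genes of other roles, such as Sox4, Sox18 and Prdm16, which are counted below. Of the 42 genes, 23 were captured on 30 promoters. By the mark in the authors' deposited table and the FPKM values, 9 of the 23 first-batch promoters were marked and higher in fetal HSCs and 2 marked and higher in adult HSCs, where 15.8% of all promoters were marked and higher in fetal HSCs. Of the 7 second-batch promoters, all of which carry the mark, 5 were higher in fetal and 2 in adult HSCs, where 45.9% of all were higher in fetal HSCs. The fetal side was led by H19 and Igf2. H19, H19_1 and all 3 Igf2 promoters are among the 9 first-batch promoters marked and higher in fetal HSCs. Those 9 therefore do not stand for 9 genes. H19_1, a promoter of the imprinted RNA that carries a microRNA, was listed at 209 and 2.15 FPKM (log2 difference 6.06). Igf2, the fetal growth factor gene whose mRNA the IGF2BP proteins are named for, was listed at 36.4 and 0.798 (4.38). On the adult side, Zcchc11, a uridylyl transferase that acts on pre-let-7 with LIN28A, was listed at 3.10 and 6.60 (-0.89). Cdk6, a cell-cycle kinase gene and let-7 target, was listed at 6.30 and 12.2 (-0.85). In the first batch 14 of the 23 promoters had more fetal calls, 6 more adult calls and 3 equal numbers, where 48.1% of all promoters had more fetal calls. In the second batch these numbers were 3, 3 and 1 of 7, where 50.1% had more fetal calls. The median log2 ratio of calls was 0.08 for the 23 promoters of the first batch and 0.00 for the 7 of the second, beside 0.00 and 0.03 over all promoters. Of the 3 Igf2 promoters, Igf2 had 4 fetal calls and 1 adult call and Igf2_1 11 and 5, none of them shared, while Igf2_2 had 60 and 45, of which 22 were shared. Cdk6 had the same 4 contacts called in both populations.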

How the data were processed

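The authors deposited 1 table of called contacts with whole-number counts per contact, population and batch, and no values per library. Trim Galore 0.41, Bowtie2 2.2.2 and build mm9 are named, per the submitters' processing notes. LiMACC is part of the name of the deposited list, and its columns do not say what it stands for. Read filters, duplicate removal and pooling are not given in the sources used here. The deposited score per contact is 0 where no call was made. FPKM values, the differential expression mark and the 0 or 1 marks of bins were also deposited by the authors, and how they were made is not given. Coordinates are those of the table, and GRCm38.p6 served for names, gene lengths and promoter sequences alone. The builds were not aligned, so whether a sequence window lies in a captured fragment was not determined.

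The members, lists and groupings were chosen with earlier results of these data known. Named are the 7 genes, captured promoters within 5 kb of their bins or sharing them, the 2 promoters nearest in pattern, the 2 list genes with the largest FPKM ratio in each direction, and the marker genes that passed or missed 1 FPKM as stated. Single contacts beyond the highest score, largest ratio and farthest were picked after their values were seen.

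With 1 pooled value per population and batch no test was possible and no p-value is given. Shares, medians and comparisons with all promoters were made within a batch, and some counts of the genes' bins are given over both batches. Distances run between the middles of fragment and bin. Log2 ratios add 1 to both sides. Shares carry Clopper-Pearson, ratios exact conditional binomial 95% intervals (scipy 1.17.1, pandas 2.3.3, python 3.11.15), which cover counting error only. The steps were tested on simulated data. The planned comparison of IGF2BP protein sequences was not run. All value columns had a population (0 unassigned). A listed marker is not reported here and was left out of its sum.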

Additional observations from a re-analysis of the deposited data

How the results depend on the processing

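No paired analysis was possible because the value columns pool libraries and carry no replicate number, and for the same reason no library could be left out. With a p limit 10 times smaller, Hmga2 and Sox17 together kept 13 fetal calls of 25 and 10 adult calls of 26, and the 5 second-batch genes 11 of 23 and 9 of 16, while promoters with more adult than fetal calls numbered 1 in place of 2. Calls in fetal and adult cells were then 2 and 0 for Lin28b, 3 and 0 for Igf2bp1, 1 and 0 for Igf2bp2, 2 and 1 for Igf2bp3, 3 and 8 for Arid3a, and 10 and 10 for Sox17. Active enhancers took 54.5% (6 of 11) of second-batch fetal calls under that limit, and 44.4% (4 of 9) of adult calls. In the first batch they took 30.8% of fetal and 30% of adult calls. The shares over all promoters under that limit were not computed. Merging called bins up to 5 kb apart left 11 fetal and 14 adult calls for Hmga2 and Sox17. For the 5 second-batch genes 17 fetal and 8 adult calls were left. Igf2bp1 then had 2 fetal calls and 1 adult call, and Arid3a reversed to 7 fetal and 5 adult calls. When a bin within 5 kb counted as shared, Hmga2 and Sox17 shared 80% of their fetal and 69.2% of their adult calls. The 5 second-batch genes then shared 43.5% (10 of 23) of fetal and 81.3% of adult calls. Widening this to 20 kb gave Hmga2 and Sox17 92% of fetal and 73.1% of adult calls. It gave the second-batch genes 47.8% (11 of 23) and 100%, so most of their fetal calls stayed unshared. No such share over all promoters was computed. Raw counts turned the first-batch median log2 count ratio from -0.09 to 0.14, that of Arid3a to 0.059 and that of Sox17 to 0.069. A pseudocount of 5 turned Hmga2 to -0.0095. The median of promoter medians put adult first-batch distance at 250.2 kb. Without distance classes 2 bins lay below the 5th percentile. An FPKM pseudocount of 0.1 gave log2 differences of 5.80 for Igf2bp1, 4.63 for Igf2bp3, 3.93 for Hmga2 and 3.58 for Lin28b. Leaving out contacts within 20 kb or beyond 1 Mb changed nothing, and each gene had 1 promoter. The 0 to 16 counts per bin of Hmga2 and Sox17 leave most single-bin differences not detectable at this depth.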
